A study of Mus musculus with 12 samples.

Results

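The 10 genes Pdx1, Nkx6-1, Nkx2-2, Neurod1, Pax6, Isl1, Foxa2, Rfx6, Mnx1 and Insm1 encode transcription factors that build and maintain the pancreatic beta cell. They were taken by symbol from the 24421 gene symbols counted in each library, and all 10 were present and passed the filter on low counts. RNA was sequenced from Min6, a mouse insulinoma cell line that makes and secretes insulin, after infection for 48 h with an adenovirus that carried either a control hairpin (sh-ctrl) or a hairpin against Il22ra1 (sh-Il22ra1), the ligand-binding chain of the interleukin-22 receptor. Both groups also received 0.3 mM palmitate, a saturated fatty acid, for 24 h, and no uninfected or palmitate-free group is analysed here. Each group had 6 libraries of a wild-type line. The labels number the gene name upward in the treatment field of sh-Il22ra1 replicates 2 to 6, and these libraries were kept in the group that their titles give. Nothing in the labels tells separate cultures from repeat samples, so the p-values reflect only how much these 12 samples vary, which may be technical variation.

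These factors act as a network of DNA-binding proteins rather than as a linear pathway. Foxa2 is a forkhead pioneer factor of the gut endoderm that opens chromatin at the Pdx1 gene. Pdx1, a homeodomain protein, specifies the pancreas and in the mature beta cell activates insulin and glucose transporter genes. Neurod1, Insm1, Nkx2-2, Rfx6, Pax6 and Isl1 are shared by several islet endocrine cell types, while Nkx6-1, Mnx1 and, in the mouse, Pdx1 mark the beta cell more closely. The comparison addressed how the transcription of beta cells under lipid load depends on the interleukin-22 receptor chain.

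Reads in genes ranged from 13108494 to 15887448 per library, and each member had between 254 and 9201 reads in each library. Il22ra1 had 7 to 20 reads in the sh-ctrl libraries and 1 to 4 in the sh-Il22ra1 libraries, 0.831 CPM ± 0.256 against 0.164 CPM ± 0.0873 (SD, n = 6 each; p = 0.00216, two-sided exact permutation test, at the floor of this design). CPM is reads per 1e+06 gene reads, with library sizes scaled by the trimmed mean of M values (TMM). Unaligned reads took 12.8% to 17.3% of the sh-ctrl files and 8.71% to 11.8% of the sh-Il22ra1 files, and the part of this difference in the results was not tested. On the second principal component, sh-ctrl replicates 1 (18.2) and 4 (31.9) stood apart from the other sh-ctrl libraries (-17.7 to -0.126). Beta-cell genes were abundant: the insulin gene Ins2 was at 49590 CPM, Iapp at 30590 CPM and Mafa at 556 CPM on average in sh-ctrl. Because these are bulk samples, fewer cells of a type and less RNA per cell cannot be told apart.

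Markers of other cells were each below Ins2 and Iapp, but Ttr was above Mafa and above every core factor in both groups. The summed level of the markers separated the groups for other islet cells and for fibroblasts, endothelium and leukocytes, and overlapped for acinar and duct genes. In the list of 13 genes of other islet cells, the summed level was 1133 to 1493 CPM in sh-ctrl and 806 to 1028 CPM in sh-Il22ra1. Most of it came from Ttr, a thyroid hormone carrier (975 CPM to 761 CPM, log2 fold change -0.36, SE 0.0838), and Gcg, the glucagon gene (267 CPM to 147 CPM, log2 fold change -0.86, SE 0.0568). The delta-cell factor gene Hhex had no reads in any library. Slc38a5, an amino acid transporter gene (13.6 CPM to 8.68 CPM), and Rbp4, the retinol carrier gene (13.6 CPM to 8.53 CPM), were the other genes of that list above 10 CPM. In the list of 17 acinar and duct genes the summed level was 436 to 562 CPM in sh-ctrl and 411 to 448 CPM in sh-Il22ra1, with Krt7 (170.1 CPM to 220.0 CPM) and Spp1 (54.0 CPM to 41.6 CPM) among those above 10 CPM, while Ptf1a and Prss1 had no reads in any library. The 16 genes of fibroblasts, endothelium and leukocytes summed to 24.6 to 34.0 CPM in sh-ctrl and 11.04 to 14.6 CPM in sh-Il22ra1, with Cd68 (22.1 CPM to 6.17 CPM) alone above 10 CPM and the leukocyte gene Ptprc at 0.0358 CPM and 0.0902 CPM. The part of these markers in the results on the factors was not tested.

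The 10 factors changed little and in both directions. At an adjusted p under 0.05 (edgeR, quasi-likelihood F-test, Benjamini-Hochberg over all genes), 4 rose (Neurod1, Rfx6, Mnx1 and Insm1), 3 fell (Foxa2, Pax6 and Nkx6-1) and 3 did not pass (Pdx1, Nkx2-2 and Isl1). Over all 13102 genes tested, the same test called 51.9%, with 25.4% higher and 26.5% lower. Log2 fold changes of the members ran from -0.37 to 0.37, and their median was 0.09 beside -0.0043 over all tested genes. The groups did not overlap for 2 of the 10, Foxa2 and Pax6, against 28.1% of all tested genes. Of the 7 calls, 5 held when any 1 library was left out (Foxa2, Pax6, Nkx6-1, Neurod1 and Mnx1), and those of Rfx6 and Insm1 did not.

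Per length of transcript, Pdx1 was the most abundant of the 10 factors and Rfx6 the least in both groups. Pdx1 stood at 247 CPM per kb ± 8.79 in sh-ctrl and 233 ± 15.8 in sh-Il22ra1, Insm1 at 102 ± 10.85 and 116 ± 6.11, and Rfx6 at 6.92 ± 0.788 and 7.97 ± 0.482 (SD, n = 6 each). Between Insm1 and Pax6 lay 6 factors at like levels: in sh-ctrl the order was Nkx6-1 (55.0 CPM per kb), Foxa2 (54.0), Neurod1 (45.6), Nkx2-2 (43.2), Isl1 (39.8) and Mnx1 (34.4). Each neighbour in that stretch overlapped the next in its range over libraries, so the order of neighbours is not resolved. Factors further apart could separate, such as Foxa2 (48.9 to 57.8) above Isl1 (36.7 to 42.8). In sh-Il22ra1 the order of the 6 was Neurod1 (59.1 CPM per kb), Nkx6-1 (46.9), Nkx2-2 (46.9), Foxa2 (41.8), Isl1 (41.4) and Mnx1 (39.5), again with overlapping neighbours. Neurod1 therefore moved from place 5 to place 3 and Foxa2 from place 4 to place 6 by mean level. Pax6 was at 24.9 CPM per kb and 19.6 CPM per kb, with ranges separate from Mnx1 above and Rfx6 below. Length is that of the longest coding transcript in the annotation. With all annotated exon bases in its place, chosen after seeing the data, Pax6 in sh-ctrl was at 9.42 CPM per kb in place of 24.9, and Mnx1 came before Nkx2-2 and Isl1.

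**Figure D1:**
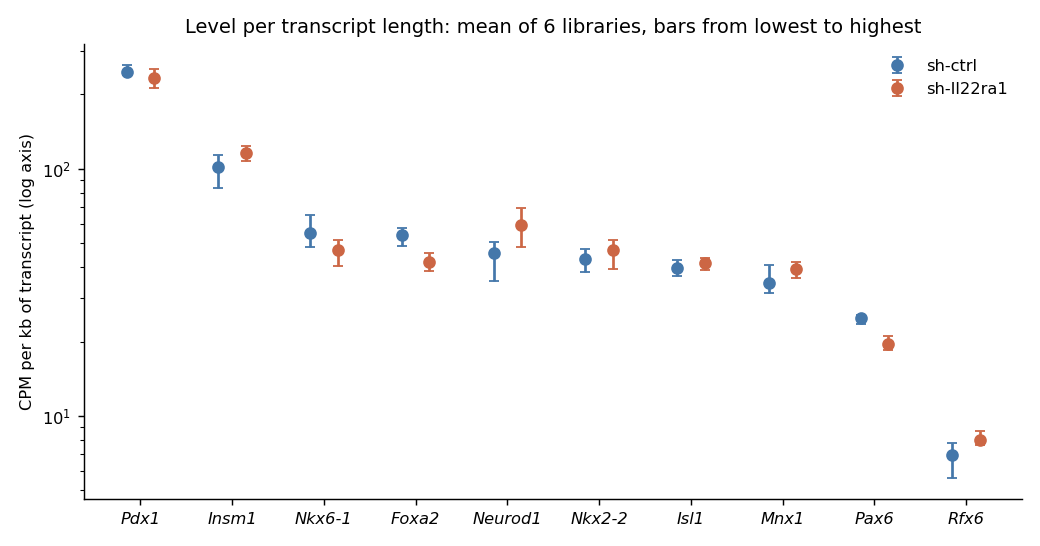
Level of each factor in CPM per kb of transcript (log axis), with points at the mean of 6 libraries and bars from the lowest to the highest library, for sh-ctrl in blue and sh-Il22ra1 in orange. Pdx1 (247 and 233) and Insm1 (102 and 116) lie above the other factors and Rfx6 (6.92 and 7.97) below them in both groups.

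Foxa2, the pioneer factor, separated the groups completely, with all 6 sh-Il22ra1 libraries below all 6 sh-ctrl libraries. Its gene occupies bases 148042877 to 148046969 of chromosome 2 (minus strand, GRCm38). The lowest, median and highest sh-ctrl libraries were at 104.0, 114 and 122.9 CPM, and those of sh-Il22ra1 at 82.05, 87.7 and 97.5 CPM. The highest sh-Il22ra1 library, replicate 6, was thus below the lowest sh-ctrl library, replicate 5. Means were 115 CPM ± 7.20 and 88.9 CPM ± 5.55 (SD, n = 6 each), 1.29-fold lower, with a log2 fold change of -0.37 (SE 0.0596; edgeR adjusted p = 4.81e-05). Over 22 alternatives of scaling, filter, tool, block and left-out libraries the change stayed between -0.41 and -0.35 (adjusted p at most 0.000241 in edgeR, DESeq2 or limma-voom).

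Pax6, a paired-box and homeodomain factor that activates insulin and glucagon genes, gave the other pair of groups that did not overlap. Its gene spans 105668900 to 105697364 on the plus strand of chromosome 2. Sh-ctrl libraries had a lowest, median and highest level of 105, 111 and 114 CPM, and sh-Il22ra1 libraries of 82.1, 85.75 and 93.5 CPM. With a coefficient of variation of 3.16% in sh-ctrl it was the steadiest of the 10 factors there. The means, 110.1 CPM ± 3.48 and 86.75 CPM ± 4.63 (SD, n = 6 each), differed by a log2 fold change of -0.34 (SE 0.0531; edgeR adjusted p = 2.98e-05). The counts are per gene and do not separate the Pax6 isoforms.

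Sequences upstream of the start are shown for the members whose call held without any 1 library and whose 250 bases before the most upstream RefSeq start (build GRCm38.p6) contain no annotated exon; 9 of the 10 members had a window in the table, and Insm1 had none. Foxa2 and Pax6 fell and Mnx1 rose. Each is written from 5′ to 3′ on the strand of the gene, and capitals mark matches to the motifs searched. Foxa2 is at chr2:148046970-148047219 on the minus strand, Pax6 at chr2:105668646-105668895 on the plus strand and Mnx1 at chr5:29478471-29478720 on the minus strand.
Foxa2: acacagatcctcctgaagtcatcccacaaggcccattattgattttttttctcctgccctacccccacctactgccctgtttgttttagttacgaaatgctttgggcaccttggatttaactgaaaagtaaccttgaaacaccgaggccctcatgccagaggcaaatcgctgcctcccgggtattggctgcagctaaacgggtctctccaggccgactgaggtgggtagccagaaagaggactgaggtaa
Pax6: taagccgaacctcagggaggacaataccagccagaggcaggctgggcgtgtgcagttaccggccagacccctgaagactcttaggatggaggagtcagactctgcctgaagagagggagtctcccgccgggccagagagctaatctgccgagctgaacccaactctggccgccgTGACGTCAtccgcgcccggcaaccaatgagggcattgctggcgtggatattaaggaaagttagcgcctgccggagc
Mnx1: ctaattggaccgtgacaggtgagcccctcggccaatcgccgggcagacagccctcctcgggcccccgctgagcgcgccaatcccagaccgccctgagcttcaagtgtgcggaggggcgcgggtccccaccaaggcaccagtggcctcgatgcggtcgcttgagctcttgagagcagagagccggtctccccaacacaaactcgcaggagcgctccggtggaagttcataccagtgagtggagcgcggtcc

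The motifs searched on both strands were TTCNNNGAA (bound by STAT factors), CAGATG (an E-box bound by Neurod1), TGTTTAC (forkhead), TAATTA (homeodomain), TGACG (the shorter form of the cyclic AMP response element) and TGACGTCA (the palindromic form, which holds TGACG on each strand). Of these, TGACGTCA was found in the Pax6 window, starting 76 bases before the start site, and in the windows of Foxa2 and Mnx1 there was no match. Over the 32851 windows of the same length in the table, 7.02% held TTCNNNGAA, 14.4% CAGATG, 3.17% TGTTTAC, 4.84% TAATTA, 17.8% TGACG and 1.55% TGACGTCA. These are matches of letters, and no binding was measured.

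Nkx6-1, a homeodomain repressor that keeps beta cells from alternative endocrine fates, was also lower, with overlapping groups. Its position is 101658139 to 101664996 of chromosome 5, minus strand. Its level ran from 151 through a median of 171 to 204 CPM in sh-ctrl and from 127 through 148 to 162 CPM in sh-Il22ra1. All 6 sh-Il22ra1 libraries lay below the sh-ctrl median, and sh-ctrl replicate 6 was the highest library. The means of 173 CPM ± 17.7 and 147 CPM ± 12.7 (SD, n = 6 each) gave a log2 fold change of -0.23 (SE 0.0730; edgeR adjusted p = 0.0125). With offsets for transcript length and GC content the change was -0.14 and no longer passed (edgeR adjusted p = 0.0764; 0.0394 with the replicate block as well), and without sh-ctrl replicates 1 and 4 it was -0.31. The reference transcript of Nkx6-1 has a GC content of 59.0%, within the 43.6% of Neurod1 to the 62.0% of Insm1 among the members.

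**Figure D2:**
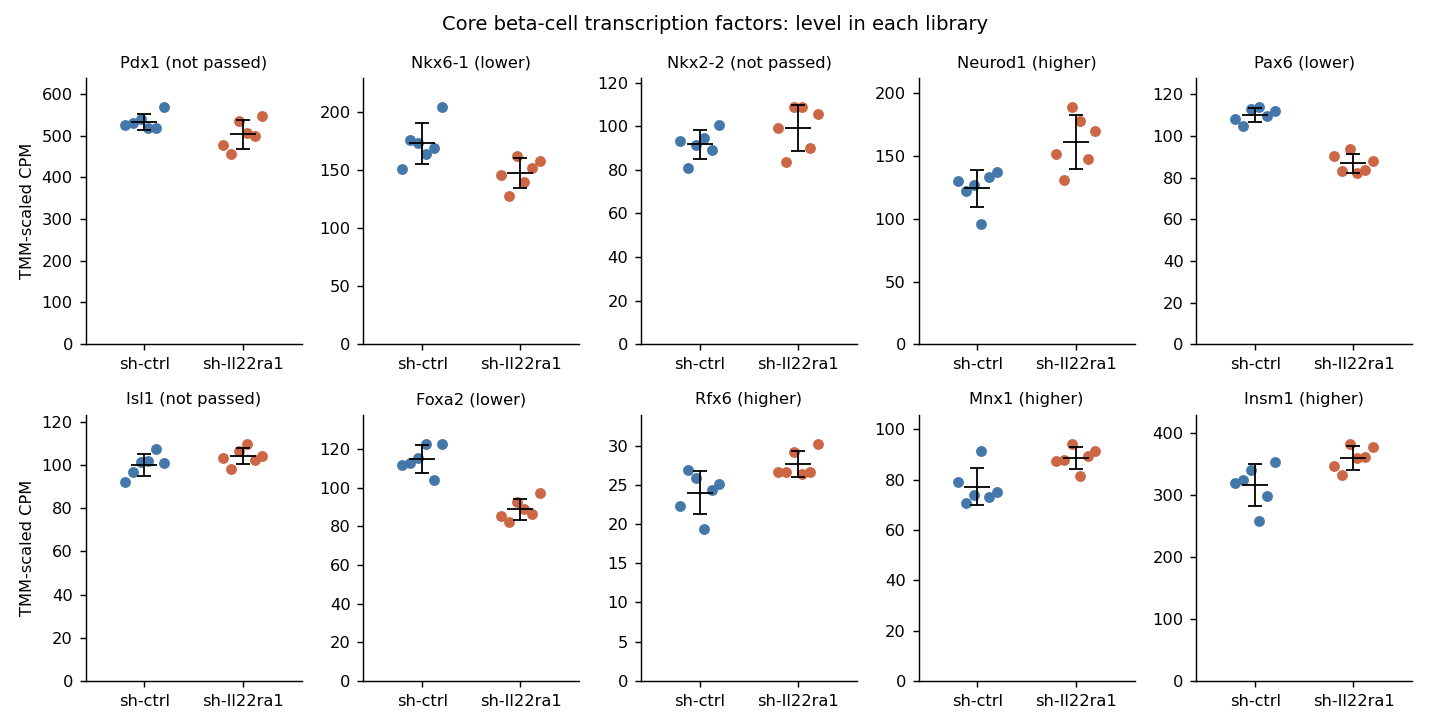
TMM-scaled CPM of each factor in each of the 12 libraries, with sh-ctrl in blue and sh-Il22ra1 in orange; the black bars are the mean and SD of 6 libraries, every axis starts at 0, and the title of each panel gives the call. Foxa2 and Pax6 separate the groups, and sh-ctrl replicate 4 is the low point of Neurod1 (96.3), Rfx6 (19.4) and Insm1 (258).

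Neurod1, a basic helix-loop-helix activator of the insulin genes, showed the largest rise of the 10. The gene covers bases 79452521 to 79456751 of chromosome 2, minus strand. Its lowest, median and highest levels were 96.3, 129 and 138 CPM in sh-ctrl and 131, 161 and 189 CPM in sh-Il22ra1. The 6 sh-Il22ra1 libraries were all above the sh-ctrl median, and sh-Il22ra1 replicate 2 alone fell within the sh-ctrl range. Between means of 124.5 ± 14.7 and 161 ± 21.5 CPM (SD, n = 6 each), the rise was 1.29-fold or a log2 fold change of 0.37 (SE 0.0913; edgeR adjusted p = 0.00221). Without sh-ctrl replicate 4, the library with the lowest Neurod1, it was 0.30 and still passed. Exons of Cerkl on the same strand overlap 7.37% of the exon bases of Neurod1, and those of the antisense gene Gm26755 overlap 5.64%. Cerkl, at 4.86 CPM and 6.15 CPM, also rose (0.34, SE 0.119, edgeR adjusted p = 0.0243). A small part of the Neurod1 reads therefore cannot be assigned with certainty.

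Mnx1, a homeodomain factor that keeps beta cells from turning into delta cells, rose by less. On chromosome 5 it covers 29473034 to 29478470, minus strand. Sh-ctrl ran from 70.5 through 74.4 to 91.2 CPM and sh-Il22ra1 from 81.4 through 88.6 to 94.3 CPM. Here sh-ctrl replicate 4 was the high library, within the range of sh-Il22ra1, and the 5 other sh-ctrl libraries were all below the lowest sh-Il22ra1 library. Means of 77.2 CPM ± 7.43 and 88.6 CPM ± 4.36 (SD, n = 6 each) gave a log2 fold change of 0.20 (SE 0.0652; edgeR adjusted p = 0.0155).

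Insm1, a zinc-finger transcriptional repressor that is needed for endocrine differentiation and recruits the LSD1 demethylase, was called higher, but the call rested on single libraries. Its single exon covers 146221921 to 146225020 of chromosome 2, plus strand. Levels were 258, 322 and 352 CPM for the lowest, median and highest sh-ctrl library and 332, 360.0 and 383 CPM for sh-Il22ra1. The upper sh-ctrl libraries overlapped the lower sh-Il22ra1 libraries, and sh-ctrl replicate 4 was the lowest. The log2 fold change of 0.19 (SE 0.0692; edgeR adjusted p = 0.0278) did not pass when replicate 4 (0.13) or 5 (0.17) of sh-ctrl, or replicate 3 (0.17) or 6 (0.16) of sh-Il22ra1, was left out, and it was 0.11 without sh-ctrl replicates 1 and 4 together. With offsets for length and GC content it was 0.33 and passed (edgeR adjusted p = 0.000366).

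Rfx6, a winged-helix factor needed for endocrine differentiation and for calcium channel genes of the mature beta cell, was the least abundant member and the least certain call. It spans 51677756 to 51730432 on the plus strand of chromosome 10. Sh-ctrl libraries ranged from 19.4 through 24.7 to 26.9 CPM and sh-Il22ra1 libraries from 26.4 through 26.6 to 30.25 CPM. All 6 sh-Il22ra1 libraries were above the sh-ctrl median, while the highest sh-ctrl library, replicate 2, was above 4 of them. The log2 fold change was 0.20 (SE 0.0810; edgeR adjusted p = 0.0452). The call was lost on leaving out any 1 library other than sh-ctrl replicates 2, 3 and 6 (9 of 12 libraries; log2 fold change 0.13 to 0.21), and without sh-ctrl replicates 1 and 4 the change was 0.10.

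The 3 factors that did not pass were Pdx1, Nkx2-2 and Isl1. Pdx1, whose gene covers 147269959 to 147275848 of chromosome 5 (plus strand), was at 518, 528 and 569 CPM in the lowest, median and highest sh-ctrl library and at 456, 503 and 547 CPM in sh-Il22ra1 (log2 fold change -0.08, SE 0.0561; edgeR adjusted p = 0.221). The groups overlapped in part: sh-Il22ra1 replicates 3 (534.2 CPM) and 6 (547 CPM) lay within the sh-ctrl range, and the other sh-Il22ra1 libraries lay below it. Nkx2-2, a homeodomain factor that acts mainly as a repressor in endocrine cells, had 80.9, 92.3 and 100.8 CPM in sh-ctrl and 83.5, 102 and 108.9 CPM in sh-Il22ra1 (0.12, SE 0.0728; edgeR adjusted p = 0.187). Isl1, a LIM-homeodomain factor that works with the cofactor Ldb1, had 92.4, 101 and 108 CPM in sh-ctrl and 98.5, 103.9 and 110.0 CPM in sh-Il22ra1 (0.06, SE 0.0533; edgeR adjusted p = 0.391). Both are minus-strand genes, Nkx2-2 at 147177546 to 147194243 of chromosome 2 and Isl1 at 116298281 to 116309689 of chromosome 13. With length and GC offsets the Isl1 value turned to -0.05, also below the threshold, and with these offsets plus the replicate number as a block Pdx1 passed downward (-0.12, edgeR adjusted p = 0.0379). The antisense gene Nkx2-2os overlaps 9.67% of the exon bases of Nkx2-2 and was at 0.0863 CPM and 0.125 CPM.

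**Figure D3:**
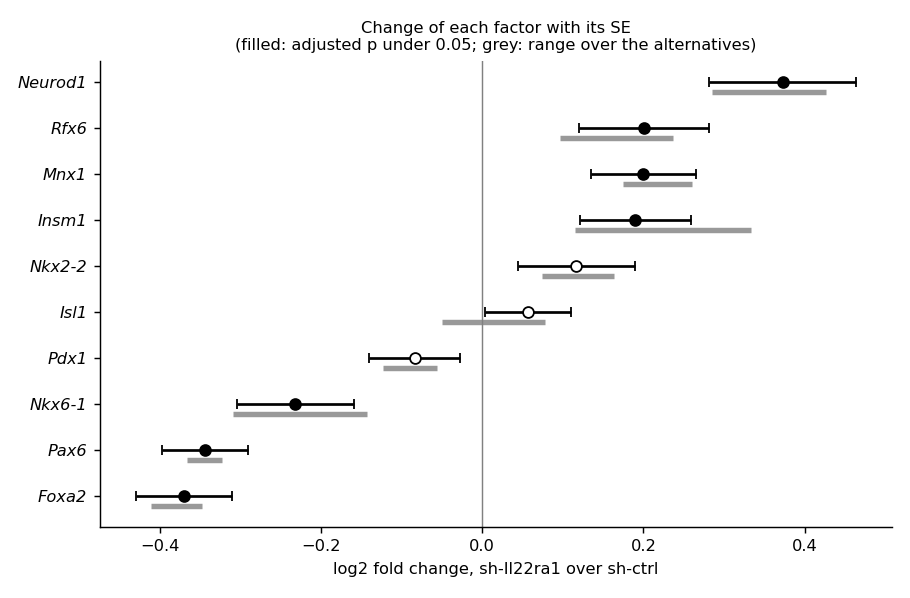
Log2 fold change of each factor (sh-Il22ra1 over sh-ctrl) with its SE, filled where the edgeR adjusted p was under 0.05, and the grey bar under each point from the lowest to the highest value over the 22 alternatives. Values run from -0.37 for Foxa2 to 0.37 for Neurod1, and the grey bar of Isl1 alone crosses 0.

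Ratios within a library do not depend on how libraries are scaled, and they tested whether the factors changed unequally. Reads of each of the other 9 members and of Mafa were divided by the reads of Pdx1, the fixed reference. All 10 ratios differed between the groups in a two-sided exact permutation test, adjusted over the 10 by Benjamini-Hochberg (adjusted p from 0.00361 to 0.0217), 6 upward and 4 downward, and for 6 of them the groups did not overlap. Over the other 13101 tested genes taken the same way, 54.2% had an unadjusted p under 0.05 and 25.3% did not overlap. The 10 ratios share the Pdx1 reads and so move together where Pdx1 moves. Neurod1 went from 0.233 ± 0.0250 to 0.320 ± 0.0278 reads per Pdx1 read (SD, n = 6 each), a log2 difference of 0.46. Insm1 went from 0.498 to 0.632 over the sh-ctrl libraries to 0.690 to 0.729 over the sh-Il22ra1 libraries, so that its groups separated here although its own levels overlapped. Rfx6 separated too, at 0.0375 to 0.0509 against 0.0523 to 0.0584. The ratios of Mnx1 (log2 difference 0.29), Nkx2-2 (0.20) and Isl1 (0.14) rose with overlapping groups; for Nkx2-2 and Isl1 neither the gene nor Pdx1 had passed by itself.

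Downward, the ratio to Pdx1 fell for Foxa2 (log2 difference -0.28), Pax6 (-0.26) and Nkx6-1 (-0.14). Foxa2 held 0.201 to 0.237 reads per Pdx1 read in sh-ctrl and 0.173 to 0.180 in sh-Il22ra1, where its spread was an SD of 0.00283. Mafa, a bZIP factor of mature beta cells outside the 10, fell further: from 1.04 ± 0.107 to 0.452 ± 0.0312 reads per Pdx1 read (SD, n = 6 each), a log2 difference of -1.20. In CPM it was at 457 to 668 in sh-ctrl and 198 to 246 in sh-Il22ra1. With the replicate number as a block, the ratios of Nkx6-1, Isl1 and Mnx1 did not pass (adjusted p = 0.0938, 0.0694 and 0.0694 in exact sign-flip permutation tests). The sign-flip test of 6 pairs is coarse, and the ratios that passed it, such as that of Foxa2, were at an adjusted p of 0.0446. Without sh-ctrl replicates 1 and 4 the ratio of Isl1 did not pass (adjusted p = 0.0571, exact permutation test). Measured against Neurod1 in place of Pdx1, Rfx6 (-0.16, adjusted p = 0.0986) and Mnx1 (-0.17, adjusted p = 0.307) did not pass the exact permutation test, and the 8 other ratios, Pdx1 among them (-0.46), were lower at adjusted p of 0.00361 to 0.0406.

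**Figure D4:**
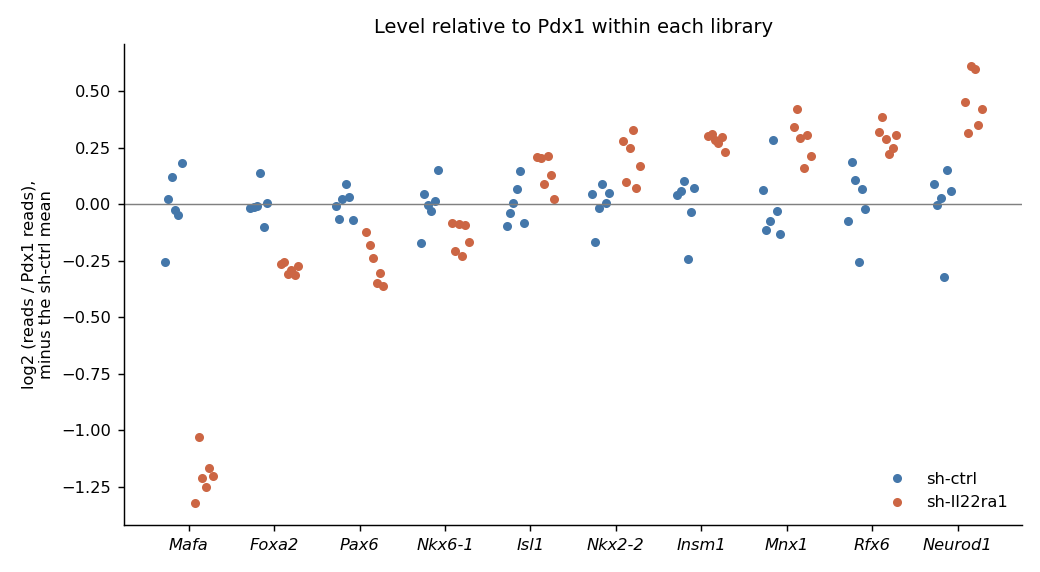
Log2 of the reads of each factor per Pdx1 read in each of the 12 libraries, minus the mean of sh-ctrl (blue sh-ctrl, orange sh-Il22ra1), ordered by the difference between groups. Mafa lies lowest (-1.20), then Foxa2 (-0.28) and Pax6 (-0.26), and Neurod1 highest (0.46).

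Some libraries lay at the end of their group for several factors. Sh-Il22ra1 replicate 2 had the lowest level of 7 of the 10 factors in its group, and sh-Il22ra1 replicate 3 the highest of 6. In sh-ctrl, replicate 6 was highest for 6 factors. Replicate 4 of sh-ctrl was lowest for Neurod1, Rfx6 and Insm1 and highest for Pax6 and Mnx1. By likeness over the 12 libraries, given as a description that includes the group difference and shared library effects, the gene with the highest Pearson correlation of log2 CPM among 10647 compared was Marveld3 for Foxa2 (0.966), Tcp11l1 for Pax6 (0.972), Cmip for Nkx6-1 (0.961) and Cldn1 for Neurod1 (0.948). For the rest it was Slc35g1 for Rfx6 (0.973), Kazald1 for Mnx1 (0.939), Rabif for Insm1 (0.962), Pura for Pdx1 (0.886), Sdccag3 for Nkx2-2 (0.890) and Galnt1 for Isl1 (0.878). Once the group means were removed, other genes came first, such as Angel2 for Insm1 (0.976), Bbs1 for Rfx6 (0.969), Cgn for Nkx6-1 (0.940) and Hccs for Neurod1 (0.935).

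Other transcription factors of beta-cell development and maturity included larger changes than any of the 10 members. Of the 25 tested of 35 listed, 11 fell, 4 rose and 10 did not pass, at a median log2 fold change of -0.22. That is 60% called, beside 51.9% of all tested genes (25.4% higher, 26.5% lower, median -0.0043). Those with small p among the falls included Mafa (-1.29, SE 0.0813), Rfx7, a relative of Rfx6 (-1.05, SE 0.102), the nuclear receptor gene Hnf4a (-0.85, SE 0.103) and Sox11 (-1.18, SE 0.201). For Hnf4a the means were 35.2 ± 6.23 and 19.5 ± 1.36 CPM (SD, n = 6 each), without overlap. Those that rose were Fev, a factor of endocrine precursors (0.86, SE 0.127), Myt1l (0.74, SE 0.143; 0.52 without sh-ctrl replicates 1 and 4), Pax4, which represses glucagon and favours the beta-cell fate (0.36, SE 0.0798), and Mlxipl, the glucose-responsive factor ChREBP (0.25, SE 0.0657). The edgeR adjusted p of these genes reached at most 0.00376. With length and GC offsets 8 were higher and 9 lower, beside 3734 and 3801 of the 13102 tested genes. Some listed factors were near absent in both groups: Neurog3 was at 0 CPM and 0.0107 CPM, and Onecut1 had no reads.

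Proteins that bind or modify the members gave 13 lower, 7 higher and 22 not past the threshold of 42 tested, with a median of -0.06. The share called, 47.6%, was near the 51.9% of all tested genes. Smarca4, the ATPase of the SWI/SNF complex that Pdx1 recruits, fell by a log2 fold change of -0.65 (SE 0.0845), with means of 241 CPM ± 37.5 and 154 CPM ± 6.42 (SD, n = 6 each). Co-repressor genes went both ways: Tle3, a Groucho protein bound by Nkx2-2 and Nkx6-1 (-0.38, SE 0.0533), and Rcor2, of the LSD1 complex that Insm1 recruits (-0.48, SE 0.0697), fell, as did Rcor3 (-0.32, edgeR adjusted p = 0.00591), while Tle4 (0.29, edgeR adjusted p = 0.00691) and Kdm1a, the LSD1 gene (0.18, edgeR adjusted p = 0.0133), rose. Tle1, Tle2, Aes and Rcor1 did not pass; these 4 and Rcor3, Tle4 and Kdm1a were named after their values were seen. The homeodomain partner gene Pbx3 (-0.35, SE 0.0557) fell as well. Among those higher, Id2, an inhibitor of basic helix-loop-helix factors, rose most (0.64, SE 0.0859; means 138.6 ± 17.7 and 215 ± 25.35 CPM, SD, n = 6 each). Setd7, a methyltransferase that acts with Pdx1 (0.52, SE 0.0995), the Isl1 cofactor gene Ldb1 (0.24, SE 0.0536) and its partner Rnf40 (0.30, SE 0.0597), and the deacetylase gene Hdac1 (0.20, SE 0.0487) rose too. Apart from Tle4, Kdm1a and Rcor3, the edgeR adjusted p of these called genes reached at most 0.00253. With length and GC offsets 11 were higher and 12 lower, beside 3734 and 3801 of the 13102 tested genes. Under these offsets Tle3 changed by -0.20, and Hdac1 (0.07) no longer passed.

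Beta-cell genes that the members bind or activate gave calls in both directions, as did all tested genes: 13 of 36 fell, 9 rose and 14 did not pass, at a median of -0.13. The share called was 61.1%, beside 51.9% of all tested genes. The cation channel gene Trpm5 (-1.24, SE 0.0857), the glucose transporter gene Slc2a2 (-0.93, SE 0.0718), the potassium channel gene Kcnj11 (-0.66, SE 0.0657), the fatty acid oxidation gene Hadh (-0.50, SE 0.0570) and the islet amyloid gene Iapp (-0.63, SE 0.0787), had the smallest p among the falls. Kcnj11 and Hadh are known targets of Foxa2, and Slc2a2 and Iapp of Pdx1, which itself did not pass. These links are named for falling genes only, and Abcc8, another listed target, rose (0.25, SE 0.0866, edgeR adjusted p = 0.0197). The part of the factors in the changes of the listed targets was not tested. The rises with the smallest p were in Pcx, pyruvate carboxylase (0.37, SE 0.0629), the disulfide-forming oxidase gene Ero1lb (0.31, SE 0.0575), the granule membrane gene Ptprn2 (0.54, SE 0.104), the prohormone convertase gene Pcsk2 (0.29, SE 0.0614) and the zinc transporter gene Slc30a8 (0.24, SE 0.0514). The edgeR adjusted p of the 10 genes named for the smallest p reached at most 0.000676. With length and GC offsets 7 rose and 18 fell, beside 3734 and 3801 of the 13102 tested genes, and Slc30a8 no longer passed (0.10). Without these offsets the insulin gene Ins1 fell with overlapping groups (-0.36, SE 0.0850, edgeR adjusted p = 0.00153). Its means were 3502 ± 512.1 and 2721 ± 195.1 CPM (SD, n = 6 each). Ins2 did not pass (-0.21, edgeR adjusted p = 0.123), with means of 49590 ± 10350 and 42880 ± 3216 CPM (SD, n = 6 each).

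**Figure D5:**
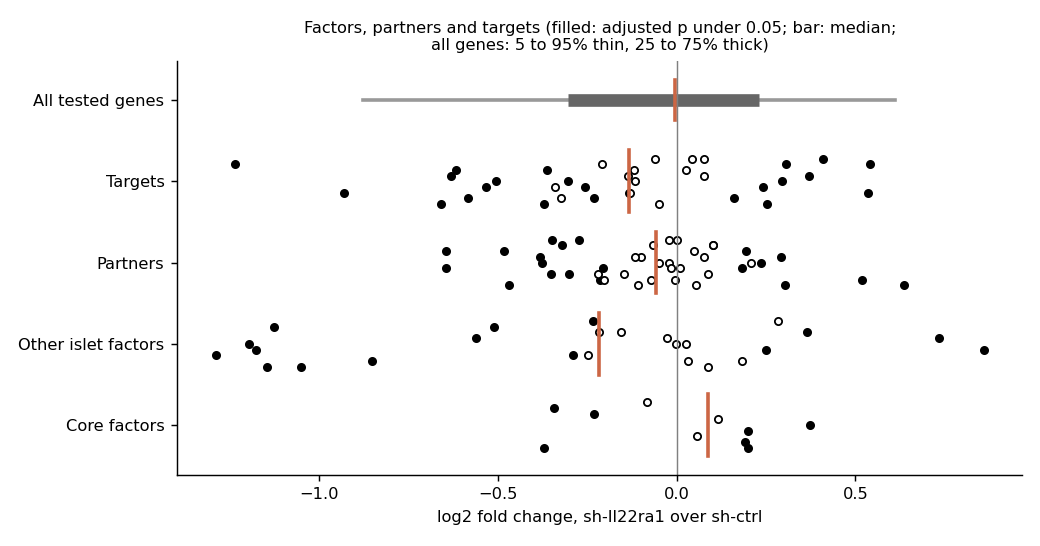
Log2 fold changes (sh-Il22ra1 over sh-ctrl) of the 10 core factors, 25 other islet factors, 42 partners and 36 targets that were tested, filled where the edgeR adjusted p was under 0.05, with the median as an orange bar and the spread of all 13102 tested genes above. The core factors lie between -0.37 and 0.37 around a median of 0.09, and the other islet factors reach -1.29.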

How the data were processed

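TRIzol RNA of 12 Min6 samples went into VAHTS Universal V6 libraries and was sequenced from both ends (NovaSeq), per the labels' protocols. The submitters' processing notes name HISAT2 2.0.5, HTSeq and mm10; which annotation and strand setting were used is not given in the sources used here. The deposited files hold whole-number counts for 24421 gene symbols and 5 rows of unassigned reads, which took 23.5% to 31.7% of a file and were left out. A deposited table of CPM made from the same libraries was not used.

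In R 4.3.3 with edgeR 4.0.16, genes kept by filterByExpr (minimum count 10, minimum total 15; 13102 genes) were scaled by TMM and compared by the quasi-likelihood test, two-sided, with Benjamini-Hochberg adjustment at 0.05. An SE is the size of a log2 fold change divided by the square root of F. The biological coefficient of variation was 0.104. Ratios used log2(reads + 0.5) and exact permutation tests over 924 splits (Python 3.11.15, numpy 2.4.6, scipy 1.17.1). The edgeR fit was tested on simulated counts, and the exact permutation test was checked against that of scipy on a small fixed set of values. Alternatives were RLE and upper-quartile scaling, DESeq2 1.42.0, limma-voom (limma 3.58.1), other filters, a replicate block, left-out libraries and offsets from splines (4 degrees of freedom) on transcript length and GC content. Gene positions, transcript lengths and shared exon bases were read from GENCODE M21 (GRCm38, mm10), which gave length and GC content for 99.5% of tested genes.

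Named genes were the 10 members, Il22ra1 and Mafa, and up to 5 called genes per direction with the smallest p in each list. The rule also named markers of other cells above 10 CPM, the gene most like each member (mean of at least 5 CPM) and genes with overlapping exons. Abcc8, Ins1, Ins2, Hhex, Ptf1a, Prss1, Ptprc, Neurog3 and Onecut1 were added after their values were seen. The values of some genes that this rule names are not reported here. The members and lists were chosen with earlier results of these data known. Of the list symbols, 2 were matched under an older name (Tle5 as Aes, Ero1b as Ero1lb). No 2 libraries of a group were duplicates: the most alike pair had a chi-square of 3.82 for each degree of freedom.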

Additional observations from a re-analysis of the deposited data

Results flagged for a closer look

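Among 44 groups of 6 values screened (levels of the 10 factors, Mafa and Il22ra1, and the ratios to Pdx1), 2 values lay apart from their group by a gap over 0.625 of its range, and chance alone flags about 5% of groups. Both belong to sh-ctrl replicate 4: its Neurod1 level was 96.3 CPM, with a gap of 0.635 of the range to the next library, and its ratio of Neurod1 to Pdx1 was 0.186 reads per Pdx1 read, with a gap of 0.640. Without that library Neurod1 still rose (log2 fold change 0.30, edgeR adjusted p = 0.0025).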

How the results depend on the processing

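Each fold change was recomputed under 22 alternatives. Foxa2, Pax6, Neurod1 and Mnx1 kept direction and call in all 22. Rfx6 lost its call without the low-count filter (0.20), with a mean of at least 1 CPM (0.19), with length and GC offsets (0.16) and without sh-ctrl replicates 1 and 4 (0.10), a choice under which Insm1 also lost it (0.11). Leaving out 1 library gave 0.13 to 0.24 for Rfx6, 0.13 to 0.22 for Insm1 and 2 to 4 members called higher. Over all tested genes, 2881 to 3521 were then called higher. Without sh-ctrl replicates 1 and 4, 2 members were called higher and 3781 genes over all. With length and GC offsets Nkx6-1 gave -0.14 and Isl1 -0.0502, and with the replicate block as well Isl1 gave -0.048, Pdx1 passed at -0.12, and Nkx6-1 (-0.14) and Rfx6 (0.17) passed again. Those 2 fits called 8 and 7 of the other islet factors higher in place of 4, and 11 and 13 partners in place of 7. Over all tested genes they called 3734 and 3894 higher in place of 3323, and 3801 and 3926 lower in place of 3472. The cause of these changes was not tested.

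The replicate numbers are not said to pair samples, and the correlation of same-numbered deviations ran from -0.0328 to 0.229, with 1 of 6 sh-ctrl libraries closest to its own number. With the replicate number as a block, 4 members were higher and 3 lower, as without it, and 3463 and 3566 genes over all in place of 3323 and 3472. In the ratios to Pdx1, Nkx6-1 (-0.14), Isl1 (0.14) and Mnx1 (0.29) did not pass with the block, at unchanged differences. The sign-flip test used there is coarse, and the ratios that passed it, such as that of Foxa2, were at an adjusted p of 0.0446. Leaving out sh-ctrl replicates 1 and 4 ended the call of Isl1 (0.14). Against Neurod1, which itself rose, the sign turned for Nkx2-2 (-0.26), Isl1 (-0.31), Rfx6 (-0.16), Mnx1 (-0.17) and Insm1 (-0.18). Of 37 genes of the lists and markers that the naming rule picks, 35 kept direction and call in all alternatives; Hdac1 and Slc30a8 lost theirs with the length and GC offsets.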
